A study of Mus musculus with 74 samples.

Results

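The genes described are 8 members of the family of regulators of G protein signaling, Rgs1, Rgs2, Rgs3, Rgs10, Rgs14, Rgs16, Rgs18 and Rgs19, out of 49480 genes in the deposited count table. They were chosen by name, with their levels across these samples already known, and each was followed through all 20 groups of the study. The study measured RNA by Smart-seq2, a full-length method for small cell numbers, in 74 libraries of 1000 sorted cells each. The cells came from tumor and spleen of C57BL/6J mice aged 12 or 3 months, taken 10 days after MC38 colon carcinoma cells had been placed under the skin. The treatment text stands on the spleen samples as well as on the tumor samples, so all groups are labelled as coming from tumor-bearing animals and none from untreated mice. The groups allow a comparison of tumor with spleen and of older with younger mice within each cell type.

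Of each type there were 4 groups: tumor at 12 months, tumor at 3 months, spleen at 12 months and spleen at 3 months. The sorts were macrophages (CD45+CD11b+F4/80+), dendritic cells (CD45+CD11b+CD11c+MHCII+), regulatory T cells (CD45+TCRb+CD4+CD25+), conventional CD4 T cells (CD45+TCRb+CD4+CD25-) and CD8 T cells (CD45+TCRb+CD8+). Groups held 4 libraries, apart from 3 libraries in dendritic cells of tumor at 12 months, dendritic cells of spleen at either age and conventional CD4 T cells of spleen at 3 months, and 2 libraries in conventional CD4 T cells of tumor at 3 months. The age tag of 2 of the 3 spleen dendritic cell libraries titled 3 months gives 12 months, and the titles were followed. All mice were labelled female except the source of replicate 1 of each dendritic cell group, which was male. Libraries held 1652812 to 9115858 counts, with a median of 4679409.5, and 16576 to 24475 genes with a count. Nothing states that the libraries of a group came from separate animals, so p-values measure only the spread between these libraries. Levels are given in CPM, counts scaled to a library total of 1000000, as mean ± SD over libraries.

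Regulators of G protein signaling bind the active alpha subunit of a heterotrimeric G protein and speed up its hydrolysis of GTP, which ends the signal that a receptor started. Chemokine receptors of leukocytes signal through Gi proteins, so these proteins set how strongly and how long a cell answers a chemokine. Rgs1, Rgs2, Rgs3, Rgs16 and Rgs18 belong to one subfamily of mostly small proteins built around the RGS domain, Rgs10 and Rgs14 to another, and Rgs19 to a further one. Several of the small members are immediate or activation-induced genes in lymphocytes and myeloid cells.

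By GENCODE vM21 on GRCm38, 4 of the 8 genes lie on chromosome 1. Rgs2 (chr1:143999338-144004161), Rgs1 (chr1:144242296-144249242) and Rgs18 (chr1:144752683-144775435) lie on the minus strand within 776.1 kb, with Rgs13 between Rgs2 and Rgs1 and Rgs21 between Rgs1 and Rgs18. Rgs16 (chr1:153740349-153745468) lies on the plus strand. The others are Rgs3 (chr4:62559847-62704001, plus strand), Rgs10 (chr7:128373621-128418758, minus strand), Rgs14 (chr13:55369732-55384687, plus strand) and Rgs19 (chr2:181688419-181693977, minus strand). RefSeq promoters on GRCm38.p6 were found for 5 of the 8 members. The 250 bases before the first annotated start are shown for 3 of them. Rgs16 (chr1:153740103-153740352, plus strand) is shown because its level differed by tissue and by age, Rgs2 (chr1:144004150-144004399, minus strand) because it lies in the same cluster as Rgs1 and had a different tissue pattern, and Rgs10 (chr7:128418173-128418422, minus strand) because its direction differed between myeloid cells and T cells. Capitals mark a match to the CCAAT box (CCAAT, or ATTGG on the other strand).
Rgs16: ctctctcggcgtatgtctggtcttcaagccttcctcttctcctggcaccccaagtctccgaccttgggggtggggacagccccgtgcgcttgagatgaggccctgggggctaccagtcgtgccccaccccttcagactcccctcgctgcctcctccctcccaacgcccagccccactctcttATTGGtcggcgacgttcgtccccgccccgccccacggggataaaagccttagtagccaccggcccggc
Rgs2: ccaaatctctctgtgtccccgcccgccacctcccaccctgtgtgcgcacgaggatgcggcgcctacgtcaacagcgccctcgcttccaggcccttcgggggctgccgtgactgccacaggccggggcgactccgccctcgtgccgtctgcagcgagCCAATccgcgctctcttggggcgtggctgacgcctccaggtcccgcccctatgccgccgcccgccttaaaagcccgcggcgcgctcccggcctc
Rgs10: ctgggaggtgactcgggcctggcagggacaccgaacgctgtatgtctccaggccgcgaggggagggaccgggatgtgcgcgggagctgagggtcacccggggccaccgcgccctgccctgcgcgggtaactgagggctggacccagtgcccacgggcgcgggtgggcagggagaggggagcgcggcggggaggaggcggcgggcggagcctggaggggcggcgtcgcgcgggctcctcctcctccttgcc
Both strands of these windows were searched for 4 motifs, AP-1 (TGANTCA), CRE (TGACGTCA), the TATA box (TATAAA) and the CCAAT box, whose letters do not overlap one another. The CCAAT match lay 68 bases before the start in Rgs16 and 94 bases before it in Rgs2, and 33.8% of 32851 promoter windows of the same length hold one. The Rgs10 window held none of the 4, and the windows of Rgs3 held TATAAA 100 and 177 bases before their starts, against a share of 12.4% for that motif in all windows. AP-1 and CRE, found in 6.75% and 1.55% of all windows, were in none of the members' windows. The windows held 17 CG pairs in Rgs16, 30 in Rgs2 and 27 in Rgs10.

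The sorts carried their defining transcripts. Median Adgre1, the gene of F4/80, was 920 CPM in tumor macrophages and 367 CPM in spleen macrophages, and median Foxp3 was 1160 CPM in tumor regulatory T cells and 1019 CPM in spleen regulatory T cells. Spleen myeloid libraries also carried other cells' markers: the sum of 11 neutrophil genes ranged over 33.1 to 998 CPM among tumor macrophage libraries and over 5129 to 45959 CPM among spleen ones, and that of 8 B cell genes over 9.19 to 48.4 CPM among tumor macrophages and 892 to 3612 CPM among spleen macrophages. In dendritic cells the sum of the 9 macrophage genes ranged over 2010 to 11437 CPM for tumor and 416 to 582 CPM for spleen, the top values being those of tumor replicate 2 at either age (11437 CPM at 12 months, 10477 CPM at 3 months). The part of these other cells in the results was not tested, and in sorted bulk RNA fewer cells of a type and less RNA per cell cannot be told apart. The mitochondrial share of counts was 0.817% to 2.01% in macrophage and regulatory T cell libraries and 3.16% to 11.2% in the other sorts. The part of that difference in comparisons between cell types was not tested.

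**Figure D1:**
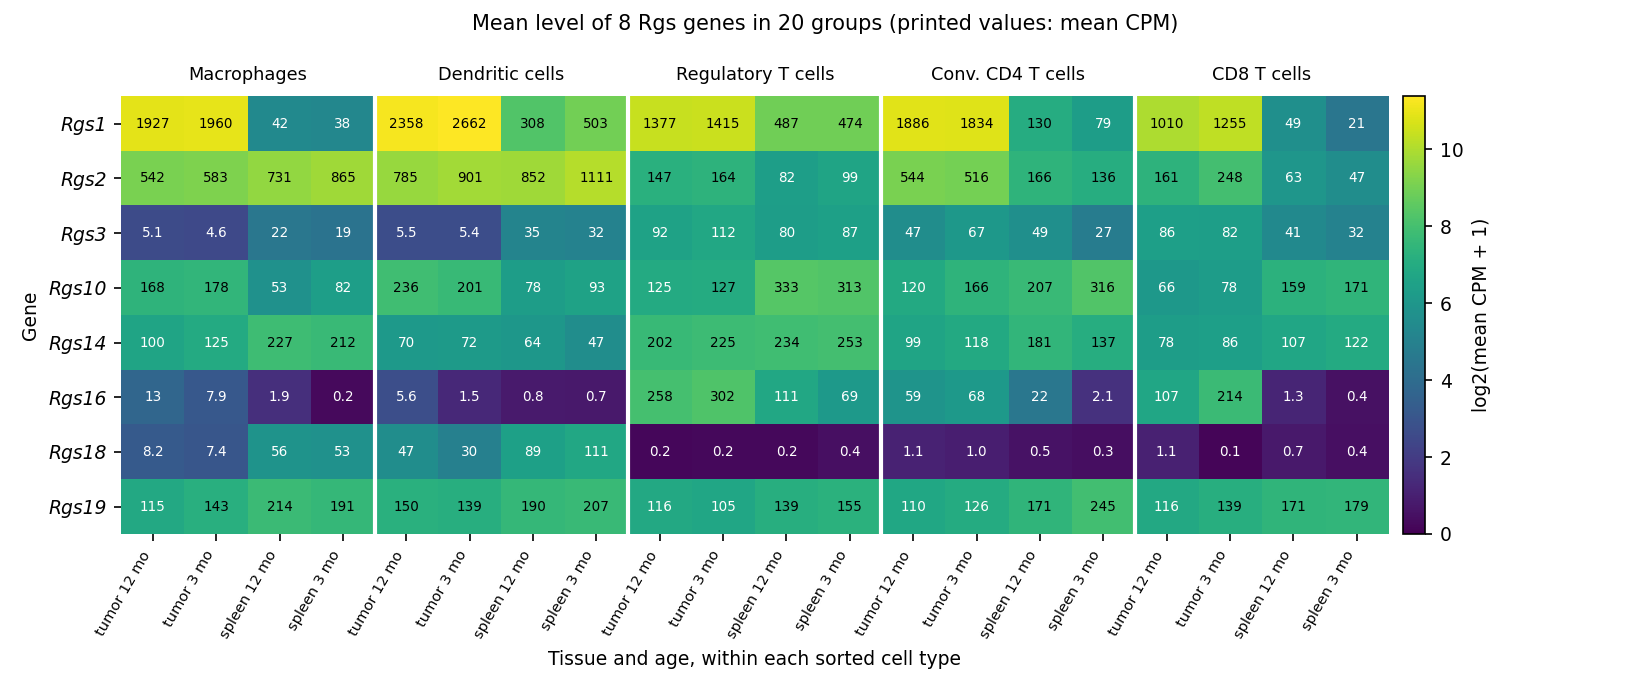
Mean level of each of the 8 genes (rows) in the 20 groups (columns, tumor left of spleen and 12 months left of 3 months in each cell type), with color on a log2(mean CPM + 1) scale and the mean CPM printed in each cell. Rgs1 is bright in all tumor columns, with group means from 1010 to 2662 CPM, Rgs18 is dark in all T cell columns, and Rgs10 is brighter in tumor for the myeloid types and in spleen for the T cells.

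Rgs1, which dampens chemokine receptor signaling in lymphocytes, was higher in tumor than in spleen in all 5 cell types, with no overlap of libraries in any of them. In macrophages it ranged over 1108, 1853 and 2686 CPM (lowest, median and highest of 8 libraries) in tumor and over 18.1, 39.9 and 56.6 CPM in spleen. In CD8 T cells the same values were 882, 1104 and 1497 CPM in tumor and 14.2, 26.4 and 72.4 CPM in spleen. No tumor library of either type came near a spleen library. In conventional CD4 T cells Rgs1 was at 1594, 1843 and 2106 CPM in tumor and 63.5, 112 and 180 CPM in spleen. Dendritic cells and regulatory T cells had a higher spleen level than these. In dendritic cells the values were 1709, 2770 and 3516 CPM in tumor and 274, 347 and 781 CPM in spleen. In regulatory T cells they were 1224, 1357 and 1720 CPM in tumor and 379, 488 and 633 CPM in spleen.

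The log2 fold changes of Rgs1, tumor over spleen, were 5.83 (SE 0.28) in macrophages, 2.95 (SE 0.25) in dendritic cells and 1.78 (SE 0.11) in regulatory T cells. They were 4.24 (SE 0.17) in conventional CD4 T cells and 5.20 (SE 0.19) in CD8 T cells. Ranked by group mean, all 10 tumor groups stood above all 10 spleen groups, and the ranges of CD8 T cells of tumor at 12 months (1010 ± 121 CPM, n = 4) and of dendritic cells of spleen at 3 months (503 ± 243 CPM, n = 3), the groups at that border, did not overlap. At the top, dendritic cells of tumor at 3 months held 2662 ± 556 CPM (n = 4) and at 12 months 2358 ± 1005 CPM (n = 3), which overlapped each other and the macrophages below them. At the bottom were CD8 T cells of spleen at 3 months with 21.3 ± 5.41 CPM (n = 4). Only 5 of the 19 neighbouring pairs in that order had ranges that did not overlap. The spread in dendritic cells came partly from single libraries: replicate 2 of tumor at 12 months had 3516 CPM against 1709 and 1849 CPM in the others, and replicate 3 of spleen at 3 months had 781 CPM against 397 and 331 CPM.

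Rgs16, a small member that is induced in activated T cells and limits their migration to chemokines, was found mostly in T cells in these data, with its highest group means in regulatory T cells. In tumor regulatory T cells it was at 268, 253, 365 and 148 CPM at 12 months and at 406, 368, 358 and 76.5 CPM at 3 months. In spleen regulatory T cells it was at 131, 116, 79.4 and 116 CPM at 12 months and at 89.1, 60.6, 54.5 and 73.4 CPM at 3 months. Tumor was above spleen apart from the 3-month tumor library of replicate 4, which lay within the spleen range. The log2 fold change was 1.91 (SE 0.27), and 2.16 (SE 0.12) without tumor replicate 4 of both ages.

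CD8 T cells showed the widest contrast of Rgs16. Tumor CD8 T cells held 136, 172, 83.0 and 37.5 CPM at 12 months and 265, 239, 276 and 76.8 CPM at 3 months. Spleen CD8 T cells held 0.849, 1.61, 1.10 and 1.63 CPM at 12 months and 0.288, 0.924, 0 and 0.489 CPM at 3 months, which is 32 counts in 8 libraries. The tissues did not overlap, and the log2 fold change was 7.83 (SE 0.49). In conventional CD4 T cells Rgs16 averaged 62.1 ± 16.6 CPM in tumor (n = 6) and 13.3 ± 12.3 CPM in spleen (n = 7), with a log2 fold change of 3.25 (SE 0.27). That value averages unlike contrasts of the 2 ages. Group means were 59.0 CPM in tumor and 21.7 CPM in spleen at 12 months, and 68.3 and 2.07 CPM at 3 months. The sum of 4 regulatory T cell markers in that sort ranged over 1026 to 1810 CPM in tumor at 12 months, overlapping spleen, and 2253 to 2580 CPM in tumor at 3 months, against 855 to 1176 CPM and 187 to 591 CPM in spleen at the same ages, and its part in the Rgs16 difference was not tested. Replicate 4 was the lowest tumor library in each of these T cell groups that has one. Those libraries also carried the largest mitochondrial shares of their tissue and type: 1.69% at 12 months and 1.43% at 3 months in regulatory T cells against 0.865% to 1.07% in the others, and 8.34% and 9.26% in CD8 T cells against 5.22% to 6.54%. Whether that share bears on Rgs16 was not tested.

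In the myeloid types Rgs16 was low and uneven. Tumor macrophages held 10.9, 35.6, 3.78 and 0.159 CPM at 12 months and 22.2, 3.05, 1.18 and 5.14 CPM at 3 months, and spleen macrophages held at most 3.54 CPM. The log2 fold change was 3.99 (SE 0.94) in macrophages and 2.24 (SE 0.99) in dendritic cells. The tissues overlapped in both types, and in dendritic cells the threshold was not passed. Over the series 6 libraries had no Rgs16 count, and 3 counts, the upper limit that a count of 0 allows, correspond to 0.446 to 0.912 CPM in them. These limits cover counting error only.

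**Figure D2:**
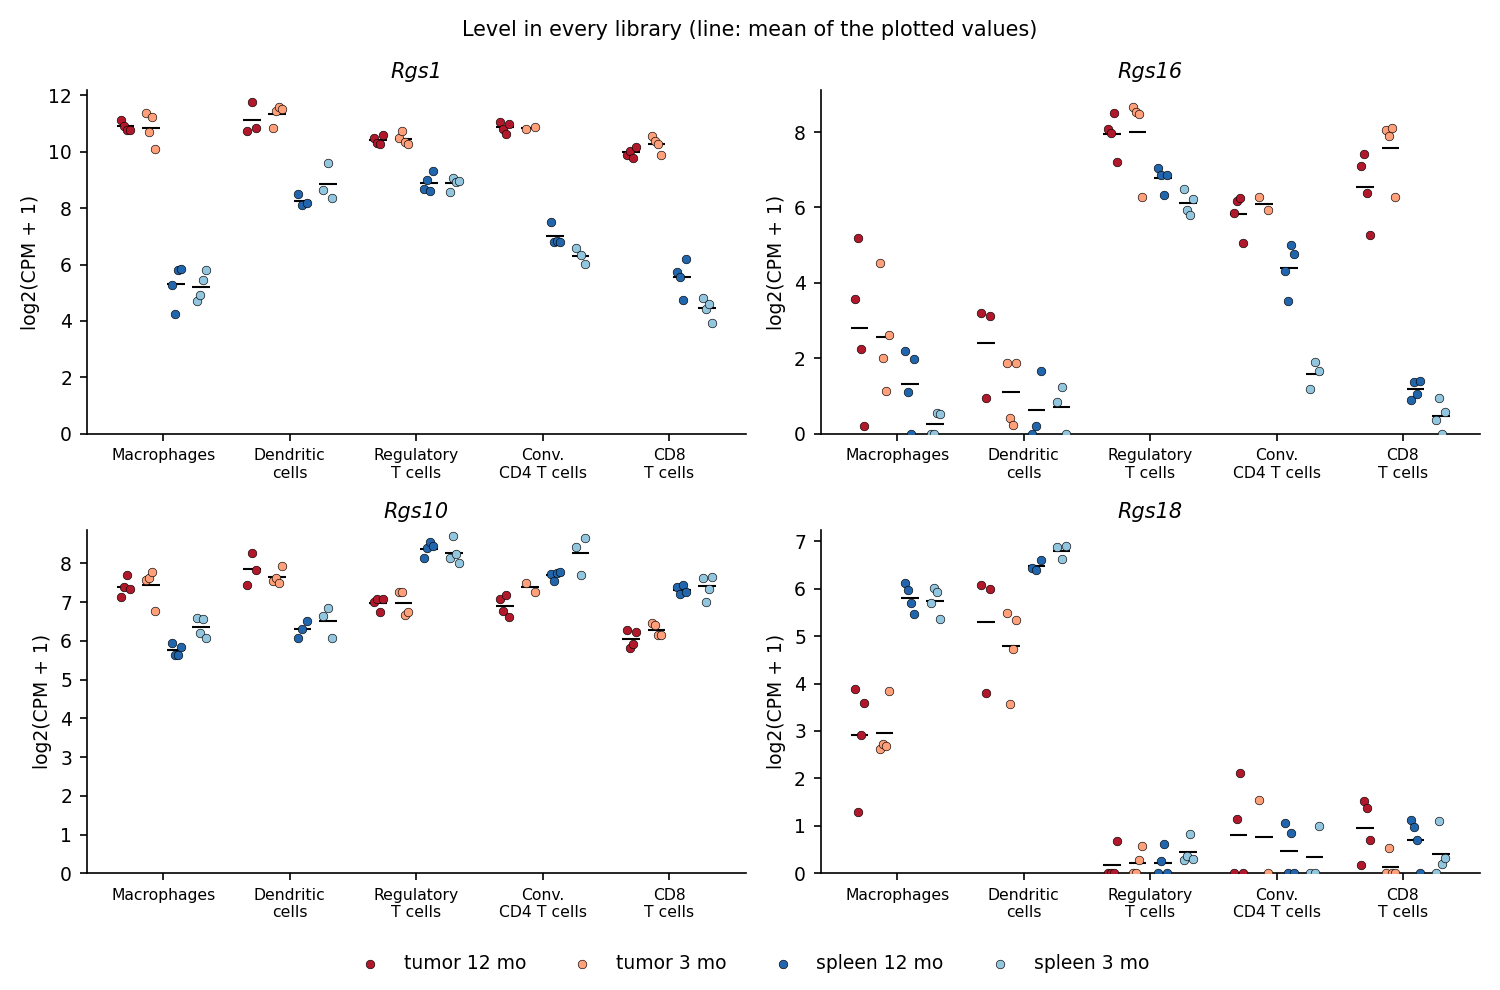
Level of Rgs1, Rgs16, Rgs10 and Rgs18 in every library on a log2(CPM + 1) scale, by cell type, with tumor (red, 12 months dark and 3 months light) left of spleen (blue) and a line at the mean of the plotted values. The tumor and spleen points of Rgs1 do not overlap in any cell type, those of Rgs10 change order between the myeloid and the T cell types, and Rgs18 is at most 3.30 CPM in all T cell libraries.

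Rgs2, a small member that prefers Gq over Gi, was high in myeloid cells of both tissues. In macrophages the lowest, median and highest libraries were 402, 561 and 762 CPM in tumor and 570, 819 and 983 CPM in spleen. In dendritic cells they were 591, 820 and 1086 CPM in tumor and 775, 950 and 1319 CPM in spleen. The tissues overlapped in both types, with log2 fold changes of -0.29 (SE 0.14) and 0.13 (SE 0.14) that did not pass the threshold. In T cells Rgs2 was higher in tumor. Conventional CD4 T cells held 535 ± 124 CPM in tumor (n = 6) and 153 ± 69.8 CPM in spleen (n = 7), CD8 T cells 205 ± 59.5 CPM and 55.0 ± 16.9 CPM (n = 8 each), and regulatory T cells 156 ± 49.5 CPM and 90.3 ± 12.7 CPM (n = 8 each). The log2 fold changes were 1.85 (SE 0.31), 1.97 (SE 0.17) and 1.03 (SE 0.16) in the order of those 3 types. The tissues did not overlap in conventional CD4 or CD8 T cells and did in regulatory T cells. The spleen values of conventional CD4 T cells at 12 months were spread widely, at 237, 124, 250 and 52.7 CPM. Without replicates 1 and 4 of spleen at 3 months the log2 fold change there was 1.96 and did not pass.

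Rgs3, which acts on Gi and Gq subunits, was lower in tumor in the myeloid types and higher in tumor in CD8 T cells. Tumor macrophages held 4.88 ± 2.17 CPM and spleen macrophages 20.3 ± 4.05 CPM (n = 8 each), with no overlap and a log2 fold change of -1.83 (SE 0.28). Tumor dendritic cells held 5.43 ± 3.07 CPM (n = 7) and spleen dendritic cells 33.4 ± 8.61 CPM (n = 6), again with no overlap, and a log2 fold change of -2.27 (SE 0.40). In CD8 T cells the values were 84.1 ± 26.3 CPM in tumor and 36.8 ± 6.09 CPM in spleen (n = 8 each), with a log2 fold change of 1.28 (SE 0.17). The 12-month tumor library of replicate 4, at 39.9 CPM, was the single CD8 tumor library inside the spleen range of 25.7 to 43.6 CPM. Differences were smaller in regulatory T cells (log2 fold change 0.52, SE 0.18) and conventional CD4 T cells (0.68, SE 0.24), where the tissues overlapped. The conventional CD4 value was 0.25 without replicate 1 of tumor at 3 months, which had 93.4 CPM against 39.9 CPM in the other library of its group, and it passed in 8 of 18 other settings.

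Rgs18, known from megakaryocytes and platelets, was found mainly in the myeloid sorts and was lower in tumor there. Tumor macrophages held 7.78 ± 4.39 CPM and spleen macrophages 54.8 ± 10.2 CPM (n = 8 each). By library, tumor macrophages had 13.8, 1.44, 6.55 and 11 CPM at 12 months and 5.13, 5.66, 5.43 and 13.2 CPM at 3 months, and the lowest spleen library had 40.1 CPM. The log2 fold change was -2.62 (SE 0.32). Tumor dendritic cells held 66.7, 13.0 and 62.8 CPM at 12 months and 44.1, 10.9, 25.6 and 39.6 CPM at 3 months, and spleen dendritic cells 86.0, 83.5 and 96.9 CPM at 12 months and 117, 97.8 and 118 CPM at 3 months. The tissues did not overlap. The log2 fold change of -1.10 (SE 0.36) was -0.73 without replicate 2 of tumor at both ages, the libraries with the high macrophage sums, which had 13.0 and 10.9 CPM, and it passed in 14 of 21 other settings. The call was lost without replicate 3 or 4 of spleen at either age, with log2 fold changes of -1.10 to -1.04. The summed level of 11 platelet genes ranged over 60.5 to 597 CPM among tumor and 55.0 to 136 CPM among spleen macrophages, and the neutrophil sum, given above, was higher in spleen macrophages as Rgs18 was. The part of either in the Rgs18 difference was not tested. T cell libraries held 0 to 3.30 CPM of Rgs18, and 19 of them had no count, where 3 counts would be 0.432 to 1.5 CPM, so it was not tested in the 3 T cell types.

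Rgs10, a small Gi-selective member studied in microglia and macrophages, had opposite signs in the 2 lineages. Tumor macrophages held 109, 178 and 216 CPM (lowest, median and highest) and spleen macrophages 48.2, 63.3 and 94.8 CPM. Tumor dendritic cells held 174, 197 and 308 CPM and spleen dendritic cells 66, 84.4 and 114 CPM. Both types were higher in tumor without overlap, with log2 fold changes of 1.60 (SE 0.14) and 1.66 (SE 0.16). In regulatory T cells the order was turned, with 100, 130 and 151 CPM in tumor and 256, 317 and 416 CPM in spleen. Conventional CD4 T cells held 97.2, 139 and 179 CPM in tumor and 184, 214 and 401 CPM in spleen. CD8 T cells held 55.4, 72.0 and 87.3 CPM in tumor and 128, 162 and 199 CPM in spleen. The T cell tissues did not overlap either, with log2 fold changes of -1.11 (SE 0.12), -0.82 (SE 0.17) and -1.12 (SE 0.11) in the order of those 3 types. The conventional CD4 value was -0.46 without spleen replicates 1 and 4 at 3 months, the libraries with 340 and 401 CPM. Those 2 libraries had ribosomal protein shares of 8.84% and 11.9%, against 4.64% in the other library of that group and 3.91% to 4.50% in spleen at 12 months.

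Rgs14, a scaffold with Ras-binding and GoLoco domains beside its RGS domain, was at 113 ± 23.7 CPM in tumor macrophages and 219 ± 27.3 CPM in spleen macrophages (n = 8 each), without overlap (log2 fold change -0.76, SE 0.12). It was also lower in tumor CD8 T cells, at 82.0 ± 10.8 CPM against 114 ± 11.3 CPM in spleen (n = 8 each; -0.40, SE 0.09). Dendritic cells went the other way, with 71.1 ± 18.7 CPM in tumor (n = 7) and 55.8 ± 11.7 CPM in spleen (n = 6), overlapping (0.69, SE 0.17). Regulatory T cells held 213 ± 30.2 CPM in tumor and 243 ± 22.3 CPM in spleen (n = 8 each), a difference that did not pass the threshold (0.05, SE 0.09). Conventional CD4 T cells held 105 ± 12.6 CPM in tumor (n = 6) and 162 ± 38.6 CPM in spleen (n = 7), overlapping (-0.50, SE 0.15). That last value was -0.48 without replicate 3 of tumor at 3 months and did not pass.

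Rgs19, also called GAIP, which binds Gi subunits, differed least between libraries of a group. Its group means ran from 105 CPM in regulatory T cells of tumor at 3 months to 245 CPM in conventional CD4 T cells of spleen at 3 months, and no pair of neighbours in that order had separate ranges. Macrophages held 129 ± 19.0 CPM in tumor and 203 ± 28.6 CPM in spleen (n = 8 each; log2 fold change -0.44, SE 0.10). Conventional CD4 T cells held 115 ± 13.2 CPM in tumor (n = 6) and 203 ± 52.9 CPM in spleen (n = 7; -0.77, SE 0.15). CD8 T cells held 128 ± 15.1 CPM in tumor and 175 ± 15.9 CPM in spleen (n = 8 each; -0.38, SE 0.09). In dendritic cells the CPM did not overlap, at 144 ± 23.4 CPM in tumor (n = 7) and 199 ± 19.7 CPM in spleen (n = 6), yet the model's log2 fold change was -0.13 (SE 0.12). The model scales libraries by TMM, which moves the tumor over spleen log2 values of all genes by 0.33 relative to CPM in dendritic cells, by 0.21 in macrophages, by 0.24 in regulatory T cells, by 0.09 in CD8 T cells and by 0.04 in conventional CD4 T cells. For the same reason Rgs2 in dendritic cells and Rgs14 in regulatory T cells had lower mean CPM in tumor and log2 fold changes just above 0.

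Counted over the cell types, 37 pairs of a member and a type could be fitted, all 8 members in each myeloid type and 7 in each T cell type. Of these, 18 were higher in tumor, 13 were lower and 6 did not pass the threshold of an adjusted p of 0.05 in edgeR, where 22.4% of all gene and type pairs were higher and 21.6% lower past the same threshold. CPM did not overlap between the tissues in 24 of the 37 pairs, 11 higher and 13 lower, against 7.31% and 12.1% of all pairs. Since the members were chosen with these levels known, the counts describe the choice. In macrophages 3 members were higher and 4 lower (23.9% and 27.8% of all genes), in dendritic cells 3 and 2 (24.4% and 22.7%), and in regulatory T cells 4 and 1 (25.9% and 27.6%). In conventional CD4 T cells 4 were higher and 3 lower (16.0% and 11.2% of all genes), as in CD8 T cells (22.5% and 19.6%). The median log2 fold change of the members was -0.37 in macrophages, 0.41 in dendritic cells, 0.52 in regulatory T cells, 0.68 in conventional CD4 T cells and 1.28 in CD8 T cells, where the medians of all genes tested lay between -0.06 and 0.04.

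**Figure D3:**
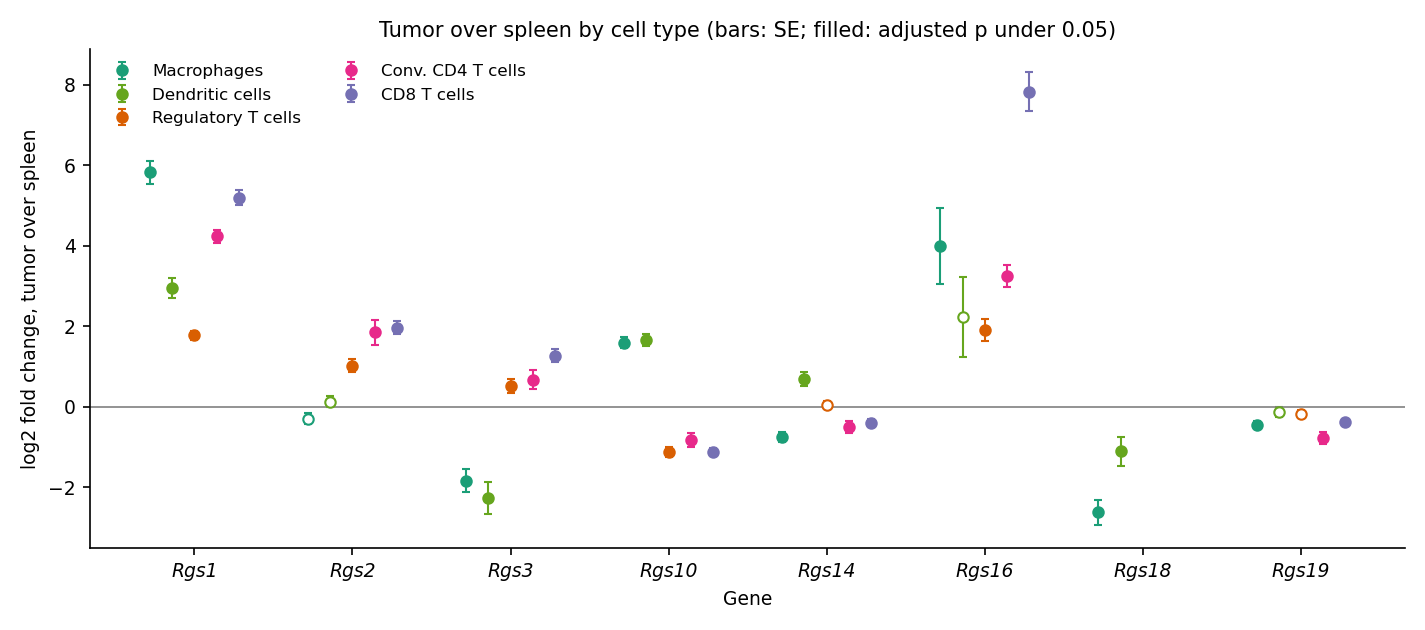
Log2 fold change, tumor over spleen, of each gene in each cell type, with bars of 1 SE, filled where the adjusted p of edgeR was under 0.05 and open where it was not. Rgs1 is above 0 in all 5 types (1.78 to 5.83), Rgs10 is above 0 in the myeloid types and below 0 in the T cell types, and the topmost point is Rgs16 in CD8 T cells at 7.83.

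The make-up of the family differed between the tissues. Levels of different genes were compared as CPM per kb of exon, and each gene was given as a share of the sum over the 8. In T cells of spleen Rgs10 held the largest mean share, with 13.5% ± 1.61 in tumor and 41.5% ± 3.81 in spleen for regulatory T cells, 13.2% ± 2.96 and 42.2% ± 6.96 for conventional CD4 T cells, and 10.3% ± 1.60 and 42.5% ± 3.81 for CD8 T cells (SD over libraries). Rgs1 held 37.0% ± 3.77 in tumor and 15.3% ± 2.26 in spleen regulatory T cells, 44.5% ± 2.28 and 4.66% ± 1.73 in conventional CD4 T cells, and 39.5% ± 3.54 and 2.25% ± 1.27 in CD8 T cells. In macrophages Rgs1 held 44% ± 5.35 in tumor and 1.33% ± 0.553 in spleen, and Rgs2 held 24.7% ± 2.29 in tumor and 49.8% ± 5.88 in spleen. In dendritic cells Rgs1 held 43.5% ± 7.15 in tumor and 10.7% ± 3.65 in spleen, and Rgs2 28.6% ± 4.86 and 50.4% ± 3.84. The Rgs1 shares of tumor and spleen libraries did not overlap in any type. Rgs16 reached 21.4% in tumor regulatory T cells and 15.7% in tumor CD8 T cells. The annotated exons of Rgs1 span 6947 bases, its whole gene, so its length-scaled share is a low estimate. Those of the others run from 1711 bases in Rgs10 to 10801 in Rgs3, and all shares depend on them. By mean CPM, Rgs10 was below Rgs19 in spleen CD8 T cells (165 against 175 CPM). It was below Rgs1 in spleen regulatory T cells (323 against 481 CPM), so its top share in these 2 types rests on the lengths.

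**Figure D4:**
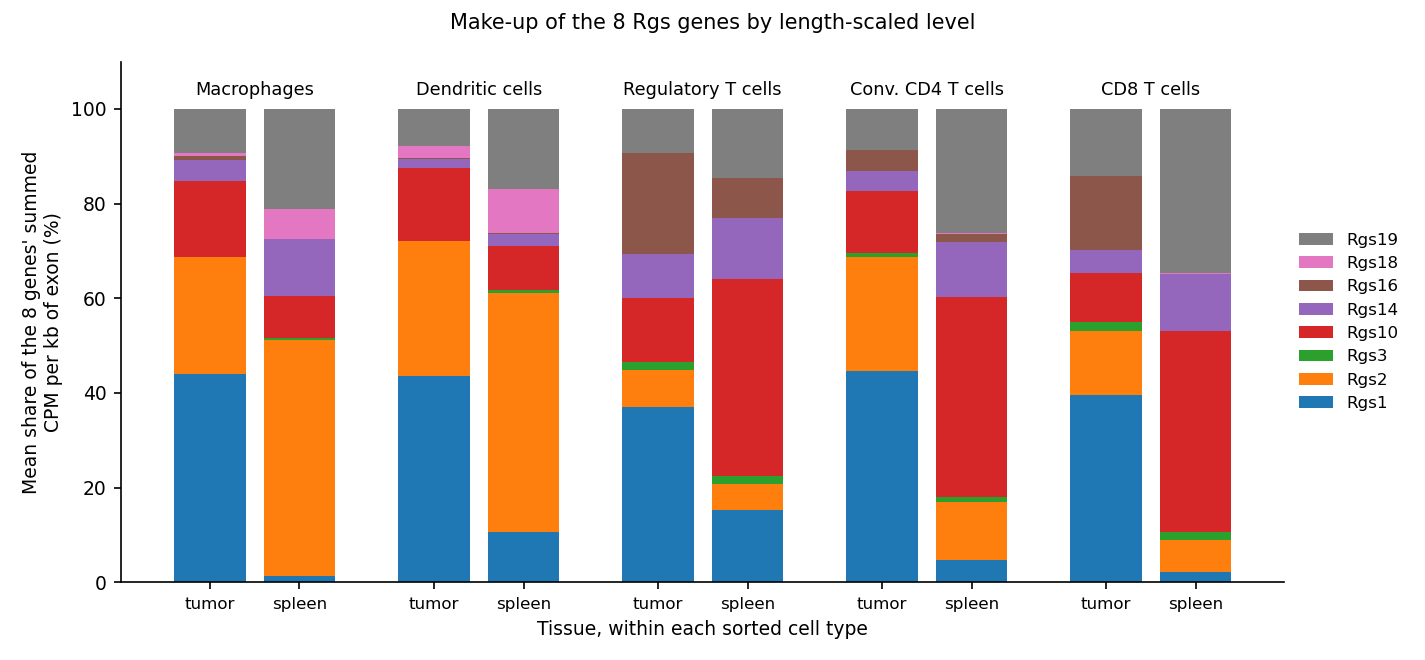
Stacked mean shares of the 8 genes in their summed CPM per kb of exon, tumor left of spleen in each cell type. Rgs1 (bottom) is the largest share in all 5 tumor bars, and the largest spleen share is Rgs2 in the myeloid types and Rgs10 in the T cell types.

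The sum of the 8 genes was higher in tumor in each type, at 2944 ± 577 CPM against 1403 ± 177 CPM in spleen for macrophages and 3860 ± 801 CPM against 1861 ± 348 CPM for dendritic cells. It was 2384 ± 322 CPM in tumor and 1458 ± 113 CPM in spleen for regulatory T cells, 2876 ± 274 CPM and 933 ± 110 CPM for conventional CD4 T cells, and 1864 ± 342 CPM and 583 ± 33.9 CPM for CD8 T cells. Rgs1 alone averaged 1944 CPM in tumor and 39.9 CPM in spleen macrophages, and 2531 and 405 CPM in dendritic cells. In these myeloid types mean Rgs1 rose by more than the sum, so the other members together had lower mean CPM in tumor. That holds for CPM by library totals. TMM moves tumor over spleen log2 values up by 0.33 in dendritic cells and 0.21 in macrophages, and the sums were not taken on that scale. In regulatory T cells Rgs1 averaged 1396 CPM in tumor and 481 CPM in spleen, which made up most of the rise. Across the 20 group means, log2 levels of Rgs2 and Rgs18 had a Pearson correlation of 0.83, those of Rgs16 and Rgs19 of -0.76, those of Rgs1 and Rgs19 of -0.75, and those of Rgs3 and Rgs16 of 0.62. These describe 20 means that share cell types and tissues. Within groups of at least 5 CPM, the median coefficient of variation between libraries was 10.4% for Rgs19, 12.3% for Rgs14, 16.3% for Rgs10, 20.3% for Rgs1, 22.3% for Rgs2, 28.4% for Rgs3, 35.1% for Rgs18 and 42.3% for Rgs16.

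Age was tested within each tissue, as 12 over 3 months. In tumor none of the 37 pairs of a member and a type passed in edgeR, where 0.00672% of all pairs did. At an unadjusted p under 0.05 there were 3, Rgs19 in macrophages (log2 fold change -0.37), Rgs10 in conventional CD4 T cells (-0.48) and Rgs2 in CD8 T cells (-0.60), and DESeq2 called 0. Rgs1, the member highest in tumor, was at 2249, 1947, 1759 and 1751 CPM in macrophages of tumor at 12 months and at 2686, 1661, 2387 and 1108 CPM at 3 months. In tumor regulatory T cells it was at 1440, 1283, 1224 and 1559 CPM at 12 months and 1425, 1720, 1290 and 1227 CPM at 3 months. The ages overlapped in both. For Rgs2 in tumor CD8 T cells the libraries were 144, 205, 114 and 182 CPM at 12 months and 264, 204, 228 and 295 CPM at 3 months. The tumor log2 fold changes ran from -0.98 (Rgs16 in CD8 T cells, SE 0.53) to 1.82 (Rgs16 in dendritic cells, SE 0.96), with a median SE of 0.21.

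In spleen 2 of 34 pairs passed in edgeR, Rgs16 in conventional CD4 T cells and Rgs1 in CD8 T cells, both higher at 12 months, where 0.662% of all pairs did so. Rgs16 in the conventional CD4 sort of spleen was at 19.1, 10.5, 31.2 and 26.0 CPM at 12 months and at 1.26, 2.74 and 2.20 CPM at 3 months, so the lowest older library was above the highest younger one. The log2 fold change was 3.20 (SE 0.48), with an adjusted p = 0.00127 from edgeR over all genes of that fit, of which 1.96% were higher past the threshold. In 12 of 13 other settings it also passed. Without replicates 1 and 4 at 3 months, which leaves 1 younger library that is assumed to vary like the older ones, the log2 fold change was 2.92 and the adjusted p of edgeR 0.0537.

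In the conventional CD4 sort of spleen Foxp3, Ikzf2 and Ctla4 were higher at 12 months. The sort excludes CD25, yet these are markers of regulatory T cells. Foxp3, their defining factor, was at 51.7, 74.7, 79.8 and 79.9 CPM in that sort at 12 months and at 21.2, 44.8 and 31.6 CPM at 3 months. The sum of the 4 regulatory T cell markers, all detected, ranged over 855 to 1176 CPM at 12 months and 187 to 591 CPM at 3 months, against 2949 to 3493 CPM in sorted spleen regulatory T cells. Most of the sum in the conventional CD4 sort was Ikzf2. It was at 768, 1049, 901 and 933 CPM at 12 months and 142, 486 and 179 CPM at 3 months. Il2ra, the gene of CD25, was at 24.32, 46.11, 36.59 and 21.81 CPM in that sort at 12 months. At 3 months Il2ra was at 24.03, 58.23 and 13.98 CPM, so the ages overlapped. Rgs16 was at 111 ± 22 CPM in sorted regulatory T cells of spleen at 12 months and 69.4 ± 15.3 CPM at 3 months (n = 4 each). That age difference had a log2 fold change of 0.66 (SE 0.18) with an adjusted p = 0.545 in edgeR, and did not pass, apart from the fit with no low-count filter (0.68, adjusted p = 0.0179 in edgeR). The part of these cells in the Rgs16 difference of the conventional CD4 sort was not tested.

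Rgs1 in spleen CD8 T cells was at 52.0, 46.1, 26.0 and 72.4 CPM at 12 months and at 26.9, 20.6, 23.5 and 14.2 CPM at 3 months. The lowest older library, replicate 3, lay just under the highest younger one. The log2 fold change was 1.20 (SE 0.26), with an adjusted p = 0.0169 in edgeR, where 0.925% of genes in that fit were higher past the threshold. It held in 7 of 13 other settings, whose log2 fold changes ran from 0.96 to 1.42. In edgeR the adjusted p was 0.0650, 0.0543 and 0.160 without replicates 1, 2 and 4 at 12 months, and 0.0507, 0.0568 and 0.0902 without replicates 2, 3 and 4 at 3 months. The summed level of 5 NK cell genes in these libraries was 76.0 to 89.3 CPM at 12 months and 19.2 to 37.3 CPM at 3 months, with Ncr1 at 0 in both, and its part in the Rgs1 difference was not tested.

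The other spleen age differences did not pass. In conventional CD4 T cells Rgs10 was at 209, 184, 214 and 219 CPM at 12 months and 340, 207 and 401 CPM at 3 months (log2 fold change -0.81, SE 0.23, adjusted p = 0.0559 in edgeR). Rgs19 there was at 163, 164, 160 and 197 CPM at 12 months and 227, 200 and 309 CPM at 3 months (-0.71, SE 0.21, adjusted p = 0.0606 in edgeR). Without replicate 3 at 3 months, the library nearest to the older ones, these were -1.07 and -0.88 and passed, and without replicates 1 and 4 they were -0.07 and -0.29. In that contrast TMM moves the log2 values of all genes by -0.16 relative to CPM. Rgs3 in the same cells was at 65.9, 46.6, 33.4 and 51.7 CPM at 12 months and 20.2, 35.7 and 23.8 CPM at 3 months (0.74, SE 0.28, adjusted p = 0.146 in edgeR), and without replicate 3 at 3 months it passed (0.94, adjusted p = 0.0260 in edgeR). In spleen macrophages Rgs10 was at 60.3, 48.2, 48.9 and 56.3 CPM at 12 months and 94.8, 72.2, 93.5 and 66.2 CPM at 3 months; the older libraries were all below the younger ones, and the log2 fold change of -0.55 (SE 0.19) had an adjusted p = 0.736 in edgeR. At an unadjusted p under 0.05 there were 10 of 34 pairs, and DESeq2 called 4. Log2 fold changes of all 34 ran from -0.81 to 3.20, with a median SE of 0.19.

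Whether the age effect differed between the tissues was tested as an interaction, the tumor effect minus the spleen effect. It passed in edgeR for 1 of 37 pairs, Rgs16 in conventional CD4 T cells, which was negative, as were 0.164% of all pairs past the threshold. Tumor conventional CD4 T cells held 57.0, 70.8, 75.6 and 32.4 CPM at 12 months and 76.3 and 60.3 CPM at 3 months, so that the age difference of the spleen libraries had no counterpart of that size. The regulatory T cell marker sum given above was lower at 12 months than at 3 months in tumor and higher in spleen, and so was Foxp3, at 145, 221, 76.1 and 143 CPM at 12 months and 354 and 226 CPM at 3 months in tumor. Their part in the interaction was not tested. The interaction was -3.47 (SE 0.53, adjusted p = 0.000981 in edgeR), and it passed in all 18 other settings, from -3.67 to -3.19. Rgs1 in CD8 T cells came next by p, with -1.47 (SE 0.33, adjusted p = 0.125 in edgeR). Tumor CD8 T cells held 950, 1048, 882 and 1160 CPM of Rgs1 at 12 months and 1497, 1331, 1246 and 948 CPM at 3 months. That interaction passed in 4 of 21 other settings, among them -1.69 without replicate 3 of spleen at 12 months (adjusted p = 0.00253 in edgeR). The largest adjusted p in edgeR among those settings was 0.323. At an unadjusted p under 0.05 there were 6 interactions, and DESeq2 called 2.

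**Figure D5:**
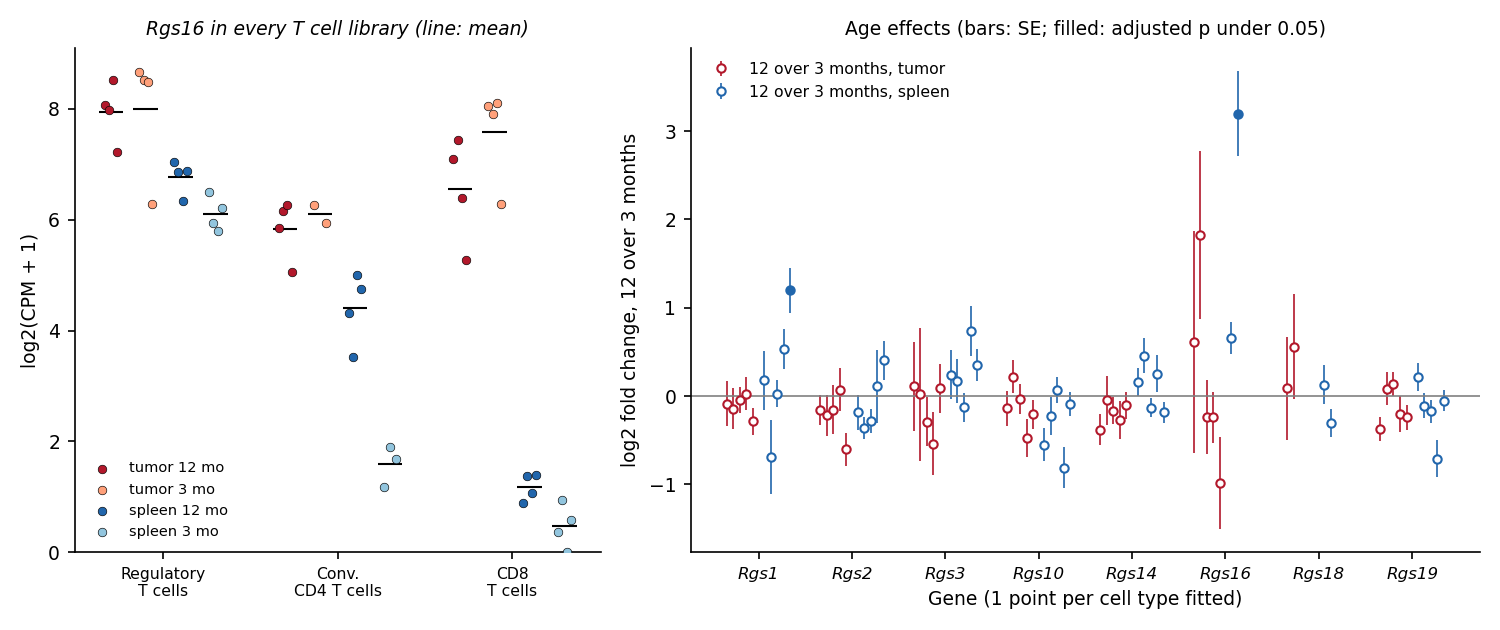
Left, Rgs16 in every T cell library on a log2(CPM + 1) scale, tumor (red) left of spleen (blue) and 12 months (dark) left of 3 months (light), with a line at the mean. Right, log2 fold changes of 12 over 3 months for each gene in tumor (red) and spleen (blue), 1 point per cell type fitted, with bars of 1 SE and filled points where the adjusted p of edgeR was under 0.05; the 2 filled points are Rgs16 in conventional CD4 T cells (3.20) and Rgs1 in CD8 T cells (1.20) of spleen.

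The rest of the pathway was read from lists of other RGS genes, G alpha subunits, G beta and gamma subunits, receptor kinases with arrestins and accessory proteins, and Gi-coupled chemoattractant receptors. For tumor over spleen 174 of 280 gene and type pairs passed, where 22.4% of all pairs were higher and 21.6% lower. Among other RGS genes 4 were higher and 3 lower of 19 pairs, among G alpha subunits 20 and 10 of 50, among beta and gamma subunits 28 and 4 of 54, among kinases and accessory proteins 11 and 14 of 59, and among receptors 52 and 28 of 98. Gna15, a Gq-class alpha subunit of blood cells, was higher in tumor in all 5 types. In regulatory T cells it was at 177 ± 17.9 CPM in tumor at 12 months, 195 ± 38.9 CPM in tumor at 3 months, 17.5 ± 10.2 CPM in spleen at 12 months and 20.7 ± 10.9 CPM in spleen at 3 months. Rgs11 was higher in tumor macrophages (log2 fold change 3.17, SE 0.48) and regulatory T cells (1.56, SE 0.18) and lower in tumor CD8 T cells (-0.96, SE 0.18). Rgs8, which lies 40.0 kb from Rgs16, had 122, 63, 40 and 2 counts in tumor CD8 T cells at 12 months and 58, 168, 107 and 7 counts at 3 months. In spleen CD8 T cells it had 1 count in each of 2 libraries and 0 in the other 6, so no fold is given.

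In the age comparison of spleen 6 of 247 pathway pairs rose and 2 fell, of which a selection is given. Of all pairs 0.662% were higher past the threshold. The 2 falls were in CD8 T cells, where 11 of 11677 genes were lower past it, and dendritic cells, where 19 of 12650 were. In CD8 T cells the receptor gene Ccr2 (log2 fold change 1.62, SE 0.17, adjusted p = 4.86e-06 in edgeR) rose and Ccr9 fell by 0.72 (SE 0.13, adjusted p = 0.00357 in edgeR). In conventional CD4 T cells Cxcr5 (1.53, SE 0.30, adjusted p = 0.0110 in edgeR) and Ccr8 (1.76, SE 0.48, adjusted p = 0.0485 in edgeR) rose, as did the alpha subunit Gnaq (1.80, SE 0.38, adjusted p = 0.0144 in edgeR). In dendritic cells grouped by title, Ccr2 fell by 0.87 (SE 0.18, adjusted p = 0.0495 in edgeR). The younger group there holds the 2 libraries whose title and age tag conflict. How that fall depends on their grouping is not reported here. In tumor 0 of 263 pairs passed in edgeR, with 18 at an unadjusted p under 0.05 and 2 in DESeq2. The interaction passed for 3 of 98 receptor pairs, all negative, where 0.164% of all pairs were negative past the threshold: Ccr8 (-2.42, SE 0.46) and Ccr2 (-1.95, SE 0.45) in conventional CD4 T cells and Ccr2 (-1.30, SE 0.26) in CD8 T cells. Other RGS genes had no call for age in edgeR in spleen (0 of 11 pairs, with 1 at an unadjusted p under 0.05 and 0 in DESeq2).

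Genes with the most similar pattern over the 20 group means were found by Pearson correlation of log2(mean CPM + 1) among 10666 genes that reached 10 CPM in some group. For Rgs1 they were Tnfsf9 (0.92), Endod1 (0.90) and H2-T23 (0.89), and for Rgs16 Pgrmc1 (0.94), Ccr8 (0.94) and Ndfip1 (0.93). For Rgs2 they were Tmem176b (0.94), Bmpr2 (0.94) and Tmem176a (0.93), for Rgs3 Ikzf3 (0.96), Gimap7 (0.96) and Anxa6 (0.95), and for Rgs18 Ifitm6 (0.98), Lrrc18 (0.98) and Grk3 (0.98). Rgs10 had the weakest matches of the 8, Abcg2 (0.87), Tdrkh (0.81) and Nsmce1 (0.77). For Rgs14 they were Dnm2 (0.93), Cnppd1 (0.92) and Bin2 (0.92), and for Rgs19 Serf2 (0.88) and Rmdn1 (0.86). The groups share cell types and tissues, and with rank correlation none of the 3 genes named for Rgs2, Rgs3 or Rgs18 stayed among the closest.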

How the data were processed

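RNA of 1000 sorted cells per library was measured by Smart-seq2 in 74 libraries, and the deposited file is a table of raw counts for 49480 gene symbols. Per the submitters' processing notes, the authors used STAR 2.5.3, featureCounts and the mm10 build. What annotation release, strand setting and rule for multi-mapping reads they used is not given in the sources here. Of the symbols, 46891 are in the reference name table. Libraries were grouped by title into 5 cell types, 2 tissues and 2 ages. For 2 spleen dendritic cell libraries the title gives 3 months and the age tag 12 months, and the title was followed. The 8 genes, the pathway and marker lists, the tests and the rule for named genes were chosen with earlier results of these data known. The rule names all 8 genes, from each pathway list and comparison up to 3 genes that passed, by smallest adjusted p, and the most abundant one that did not pass, and for likeness the 3 genes with the highest Pearson correlation, predicted genes and receptor segments left out; the text gives a selection, and some results are not reported here.

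Levels are CPM from library totals. Tests used R 4.3.3, edgeR 4.0.16 and limma 3.58.1: filterByExpr, TMM scaling, robust quasi-likelihood fits, two-sided p-values adjusted by Benjamini-Hochberg over all genes of a fit, and a threshold of 0.05. Tumor over spleen, averaged over the ages, and the interaction came from 1 fit per type of all its 4 groups, and age effects from the 2 groups of a tissue. Dendritic cell fits had sex as a covariate. The SE is the log2 fold change divided by the square root of the F statistic. A fit that leaves 1 library in a group assumes that it varies like the others. The scripts were tested on simulated data. Alternatives were DESeq2 1.42.0, its size factors, no low-count filter, the replicate block, all groups in one fit, no sex covariate, the conflicting libraries left out or regrouped, libraries that stand apart left out, and each library left out in turn. Leaving out tumor replicate 4 of both ages was chosen after seeing the data. Replicate numbers were taken to pair libraries where the residuals of all of at least 3 same-numbered pairs had a correlation over 0.1. That held in tumor regulatory T cells across the ages alone (0.132 to 0.413 in 4 pairs), where the block changed no call of the 8 genes. No 2 replicates held identical counts in 103 pairs compared. Promoter sequences are RefSeq's on GRCm38.p6 and gene positions GENCODE vM21's on GRCm38. Exon lengths are the union of a gene's annotated exons. Proteins were not used here.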

Additional observations from a re-analysis of the deposited data

Results flagged for a closer look

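In a screen of 120 pairs of a gene and a group of 4 libraries, for a library far from the other 3, 8 stood apart. Chance alone gives about 1 in 20 for normally spread values. That rate does not hold for counts near 0, and the 8 genes share the libraries of a group. Rgs16 in regulatory T cells of tumor at 3 months was at 76.5 CPM in replicate 4 and 358 to 406 CPM in the others. Rgs1 in conventional CD4 T cells of spleen at 12 months was at 180 CPM in replicate 1 and 112 to 115 CPM in the others, and Rgs19 in the same group at 197 CPM in replicate 4 and 160 to 164 CPM in the others. Rgs14 in CD8 T cells of spleen at 12 months was at 114 CPM in replicate 3 and 104 to 105 CPM in the others. Rgs18 in macrophages of tumor at 3 months was at 13.2 CPM in replicate 4 and 5.13 to 5.66 CPM in the others. The remaining 3 were Rgs18 near its floor in T cells: 0.611 CPM in replicate 4 of tumor regulatory T cells at 12 months with 0 in the others, 0.782 CPM in replicate 3 of spleen regulatory T cells at 3 months with 0.209 to 0.283 CPM in the others, and 0.454 CPM in replicate 2 of tumor CD8 T cells at 3 months with 0 in the others.

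The age effect on Rgs16 in conventional CD4 T cells differed between tumor and spleen by -3.47 on the log2 scale, tumor minus spleen, in the interaction test. Rgs10 moved in opposite directions in different cell types for tumor over spleen, with log2 fold changes of 1.60 in macrophages and 1.66 in dendritic cells, where all tumor libraries were above all spleen libraries, and -1.11 in regulatory, -0.82 in conventional CD4 and -1.12 in CD8 T cells, where all were below. The difference between the cell types was not tested.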

How the results depend on the processing

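For tumor over spleen 31 of 37 pairs of a member and a cell type passed, with 30 to 32 as each library was left out and 29 to 32 under the other settings, the lowest without spleen conventional CD4 replicates 1 and 4 at 3 months. The 2 age calls in spleen became 4 with no low-count filter, 4 with DESeq2, 4 with all 4 groups in one fit, 1 without those 2 spleen libraries, and 1 to 5 as each library was left out. The 0 age calls in tumor became 1 with the replicate block (Rgs16 in CD8 T cells, -1.03, adjusted p = 0.0320 in edgeR, 1.00 without it), and stayed 0 (0 to 0) as each library was left out. The 1 interaction call became 3 with no filter, 2 with DESeq2, 2 without tumor replicate 4 of both ages, and 1 to 2 with each library left out. For the pathway lists the counts were 174 for tumor over spleen (169 to 177 as each library was left out), 8 for age in spleen (14 with no filter, 15 with DESeq2, 5 without the same 2 libraries, 4 to 18), 0 for age in tumor (3 with no filter, 2 with DESeq2, 2 with the replicate block, 0 to 2) and 3 for the interaction (10 with no filter, 6 with DESeq2, 5 with the replicate block, 5 without tumor replicate 4, 2 to 7). Every library correlated best with its own number in the age comparisons of tumor CD8 (0.0817 to 0.277, 8 libraries), spleen CD8 and spleen regulatory T cells, a hint from the data and not from the design. The causes were not tested, beyond the fewer libraries of the fits that leave some out. No call changed direction.

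Calls for tumor over spleen that were lost under some settings were Rgs3 in conventional CD4 T cells, Rgs18 in dendritic cells (-1.06 when the 2 libraries of conflicting labels were grouped by age tag, -0.70 but still past with the replicate block), Rgs2 in conventional CD4 T cells (1.96, adjusted p = 0.0577 in edgeR without spleen replicates 1 and 4 at 3 months) and Rgs14 in conventional CD4 T cells (-0.48 without replicate 3 of tumor at 3 months). Gained were Rgs16 in dendritic cells (2.24 to 3.70), Rgs2 in macrophages (-0.28 with the replicate block) and Rgs19 in regulatory T cells (-0.23 without replicate 4 of spleen at 3 months). With TMM in place of library totals, 147 of 160 group means moved by less than 1 SD. Depth limits Rgs18 in T cells and Rgs16 in spleen CD8 T cells and myeloid cells, where libraries held few or no counts.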
